A study of Mus musculus with 7 samples.

Results

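The genes described here encode the constitutive proteasome, the ubiquitin-conjugating E2 enzymes and the ubiquitin-specific proteases. The rule that picks them uses symbols and no measured value: genes named Psma, Psmb, Psmc or Psmd with a number, genes starting with Ube2, and genes named Usp with a number. The interferon-induced proteasome subunits Psmb8, Psmb9 and Psmb10 and the ISG15 protease Usp18 were left out of the set and are used only for comparison. The choice gave 82 of the 8251 genes on the array that carry a single symbol: 35 proteasome genes, 21 E2 genes and 26 ubiquitin-specific protease genes. Where several probe sets read a gene, the brightest on average stood for it. Psmc3ip, among the 35, matches by its letters only, since it encodes a meiotic recombination factor and no proteasome subunit.

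Liver RNA from female mice was read on 7 Affymetrix U74Av2 arrays, 1 array per sample. The mice were fed without restriction and were aged 24 to 26 months at death. The samples are numbered 1, 2, 3, 4, 6, 7 and 8 in the titles. Those numbers name the replicates, and every series of 7 values below runs in that order. The titles and source names give phenotypically normal mice of genotype +/+ or +/df, whereas the description field of the same samples gives the Ames dwarf genotype (df/df). The samples are treated here as the titles name them. They make up a single group, so the data show levels and the spread between arrays, with no treated or control group to compare. Nothing in the labels says plainly that each RNA came from its own mouse, so the spread and every p-value on it may be partly technical.

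Proteins are marked for destruction by chains of ubiquitin. An E1 enzyme activates ubiquitin, an E2 enzyme carries it, and an E3 ligase passes it to the substrate, while deubiquitinases such as the ubiquitin-specific proteases trim or remove it. The 26S proteasome unfolds the marked protein in its 19S cap, whose base holds a ring of ATPases, and cuts it in the 20S core, a barrel of alpha rings around beta rings. In the liver, the cytokine interferon-gamma exchanges the catalytic beta subunits Psmb5, Psmb6 and Psmb7 for Psmb8, Psmb9 and Psmb10.

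All 10 hepatocyte markers examined lay in the top 10% of genes by signal, and none of the 4 bile duct markers on the array passed the filter on dim genes. The summed signal of the 10 muscle markers was 11719 and 6551 on replicates 1 and 2, against 2394 to 2590 on the other 5 arrays. Acta1 alone gave 5991 and 2034 of those 2 sums. Atp2a1, Myl1, Tnnt3, Tnni2, Eno3 and Pvalb were also highest on replicates 1 and 2. Ckm and Myh4 were instead lowest on replicate 1, at 144 and 103. Mylpf read 319 on replicate 4, beside 322 and 307 on replicates 1 and 2. Genes of the interferon response were high on replicates 1 and 8. The bacterial spike-in controls, RNAs added during preparation, split the arrays into a set with higher signal (replicates 1 to 4) and a set with lower signal (replicates 6, 7 and 8). The median signal of an array ranged from 157 to 170.05. Values below are signals scaled to a common trimmed mean of 500.4. Signals below 50.04 were treated as a floor for log2 values, and the 4481 genes with a mean of at least 200.1 were tested. Signals of different probe sets also reflect how well each probe binds, so they rank brightness and not transcript amounts.

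Proteasome genes move together when the transcription factor Nfe2l1 is released under proteasome inhibition, and that factor binds antioxidant response elements. The letters TGACNNNGC, a core of that element, were searched on both strands from 250 bases before to 50 bases after the start of each gene in RefSeq (GRCm38.p6). The table held a promoter for 29 of the 35 proteasome genes, and 5 of those (17.2%) had a match, as did 1111 of 6576 genes on the array (16.9%). Among E2 genes 2 of 16 (12.5%) had one, and among ubiquitin-specific protease genes 6 of 18 (33.3%). The 5 proteasome windows are shown because 3 of them belong to the subunits Psmb5, Psmb6 and Psmc6, on which several of the results below turn. Capitals mark the match, each sequence runs 5′ to 3′ on the strand of its gene, and no base past the start site is printed.
Psmb5 (chr14:54618009-54618067, minus strand, match starting 47 bases before the start): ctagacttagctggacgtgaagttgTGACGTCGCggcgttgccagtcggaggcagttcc
Psmb6 (chr11:70525323-70525356, plus strand, match starting 9 bases before the start): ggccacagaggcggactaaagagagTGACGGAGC
Psmc6 (chr14:45329574-45329630, plus strand, match in the opposite orientation, 227 bases before the start): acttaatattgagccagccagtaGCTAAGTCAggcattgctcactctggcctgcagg
Psmd9 (chr5:123228134-123228189, plus strand, match starting 31 bases before the start): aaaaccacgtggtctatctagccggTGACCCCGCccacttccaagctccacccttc
Psmd12 (chr11:107479278-107479314, plus strand, match in the opposite orientation, 247 bases before the start): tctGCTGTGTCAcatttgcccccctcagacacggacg
The CCAAT box, searched as CCAAT on both strands of the same windows, was in 12 of 29 proteasome promoters (41.4%), against 42.5% of promoters of genes on the array. A match of this kind is a run of letters and no evidence that a factor binds there. By their spelling the 2 motifs can share an end letter, a T or a C, and matches were counted for each motif separately. Psmb6 and Psmc6 had their lowest signals on replicate 6, and Psmb5, Psmd9 and Psmd12 did not. Of all 31 tested proteasome genes, 12 (38.7%) were lowest on that array. Whether a match goes with the order of arrays was not tested.

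Of the 82 genes, 66 passed the filter (31 proteasome, 15 E2 and 20 ubiquitin-specific protease genes), and 50 of those 66 (75.8%) differed by less than 1.5-fold between their highest and lowest array, against 59.6% of all tested genes. By family these were 24 of 31 proteasome genes (77.4%), 9 of 15 E2 genes (60.0%) and 17 of 20 ubiquitin-specific protease genes (85.0%). Members are brighter than most genes, and bright genes vary less. Against the SD expected at their level, 17 of 31 proteasome genes (54.8%), 8 of 15 E2 genes (53.3%) and 15 of 20 ubiquitin-specific protease genes (75.0%) lay below it, beside 50.9% of all tested genes. The median SD of log2 signal was 0.16 for proteasome subunits, 0.19 for E2 enzymes and 0.16 for ubiquitin-specific proteases, beside 0.18 for all tested genes. A test of spread compared the variance of each gene with that expected at its level (limma, upper-tail F test with Benjamini-Hochberg adjustment over 4481 genes). No member passed at an adjusted p under 0.05, and no gene of the whole array did (0%). The smallest adjusted p of all tested genes was 0.096 (limma), for the muscle gene Acta1, which ran from 10.5 to 5991 across arrays. Since even that spread did not pass, the count of 0 says little about the members. At an unadjusted p under 0.05 the test picked 1 of 66 members (1.52%), the catalytic subunit Psmb6, beside 6.72% of all tested genes. With replicates 1 and 2 left out together the counts were also 0 and 1, and without replicates 6 and 7 together both were 0.

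**Figure D1:**
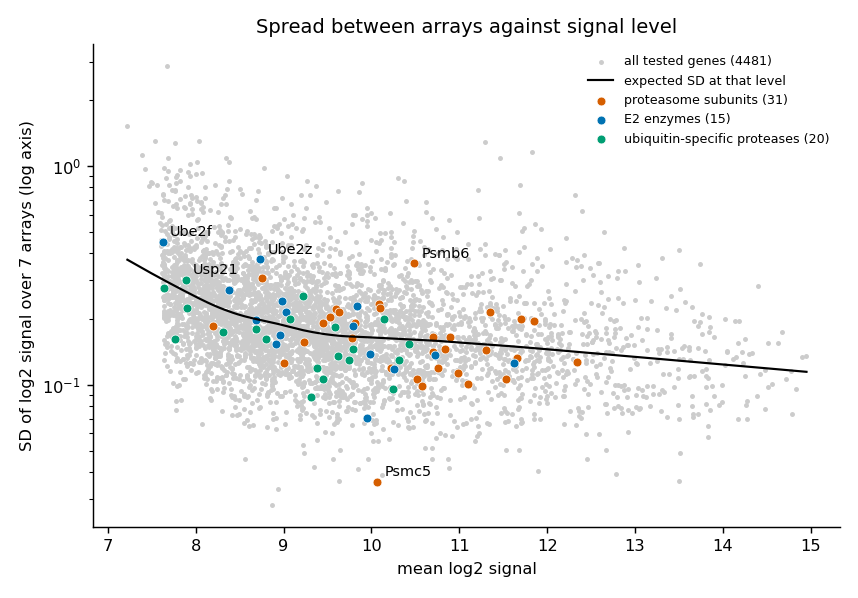
SD of log2 signal over the 7 arrays (log axis) against mean log2 signal for 4481 tested genes (grey), with the 31 proteasome, 15 E2 and 20 ubiquitin-specific protease genes coloured and the SD expected at each level as a line. Psmb6 lies above the line at an SD of 0.36, Ube2f and Ube2z lie above it at 0.45 and 0.38, and Psmc5 lies far below it at 0.04.

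The 3 families differed in brightness. The median signal over the members on the array was 1195 for the proteasome, 484 for E2 enzymes and 495 for ubiquitin-specific proteases, beside 243 for all genes. Of the 35 proteasome genes 11 lay in the top 10% of the array, against 1 of 21 E2 genes (Ube2r2) and none of the 26 ubiquitin-specific protease genes. These are descriptions of probe sets, and the difference between families was not tested, since genes are not replicates.

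The 7 alpha subunits, which form the outer rings of the core and gate its entrance, were all well measured, with means from 603 for Psma1 to 5187 for Psma3. Psma3 was the brightest member of all, at 5636, 5124, 5309, 5893, 4614, 4966 and 4764 (mean 5187 ± 461, SD, n = 7 arrays). Its values were higher on all 4 arrays of the set with higher spike-ins than on the other 3. Its probe set has the suffix _f_at, which can read related sequences. Psma5 read 1356, 969, 1123, 858, 1000, 1295 and 1077 (1097 ± 178), highest on replicates 1 and 7, and its SD was 1.42 times the expected SD without passing the test (adjusted p = 0.990, limma). Psma4 (2977 ± 217), Psma6 (2643 ± 404), Psma2 (2202 ± 154) and Psma7 (1830 ± 188) lay between these levels, and Psma6 was highest on replicate 1 at 3351.

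The 7 constitutive beta subunits include the 3 that cut. Psmb5, the chymotrypsin-like subunit, read 2042, 1922, 1848, 1886, 2166, 2053 and 2297 (2031 ± 161, log2 SD 0.11). Its arrays lay close together, with replicate 8 highest and replicate 3 lowest. Psmb7, the trypsin-like subunit, read 1431, 1706, 1434, 1369, 1497, 1384 and 1468 (1470 ± 113, log2 SD 0.11). Replicate 2 stood above the other 6 arrays, and without it the log2 SD was 0.05. Psmb6, the caspase-like subunit, read 1806, 1372, 1124, 1486, 987, 2013 and 1507 (1471 ± 359, log2 SD 0.36). Replicate 7 was 2.04-fold above replicate 6, and the other 5 arrays spread evenly between them. The SD of Psmb6 was 2.24 times that expected at its level (limma, adjusted p = 0.662, and 0.561 to 0.986 over the alternatives), so it is reported as not passing. Its log2 SD was 0.30 without replicate 6 and 0.31 without replicate 7, and the count of members at an unadjusted p under 0.05 then fell to 0. For Psmb5 and Psmb7 the SD was 0.72 and 0.66 times the expected SD. The Psmb5 probe set has the suffix _s_at and the only Psmb7 probe set _f_at, so both may read related sequences.

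The non-catalytic beta subunits were bright. Psmb4 read 3194, 3908, 4239, 2959, 4159, 3902 and 3688 (3721 ± 481), lower on replicates 1 and 4 than on the other 5. Its probe set also has the suffix _f_at, and its other 2 probe sets were dim, with means of 75.2 and 3.57. Psmb3 had a mean of 3248 ± 305. Psmb1 read 1845, 2421, 1916, 1946, 1723, 1748 and 1824 (1918 ± 236), and replicate 2 stood apart from the other 6. Without that array its log2 SD went from 0.16 to 0.07. Psmb2 read 847, 978, 1092, 1056, 1257, 1315 and 1225 (1110 ± 167), and its 4 arrays with higher spike-ins lay wholly below the other 3. Replicate 2, which stood apart for Psmb1 and Psmb7, is also an array with a high summed signal of muscle markers. The part of muscle RNA in these values was not tested.

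Of the 6 ATPases that form the motor of the cap, 5 passed the filter. Psmc6 read 3475, 3587, 3324, 3675, 2471, 3425 and 3627 (3369 ± 415). Replicate 6 stood below all others, which were within 3324 to 3675, and without it the log2 SD fell from 0.20 to 0.06. Psmc5 was the steadiest member, at 1028, 1058, 1117, 1071, 1064, 1082 and 1073 (1070 ± 26.8), with a highest array only 1.09-fold above the lowest. Psmc2 (1669 ± 159), Psmc3 (883 ± 95.1) and Psmc1 (784 ± 112) completed the ring, and Psmc2 and Psmc3 were, like Psmc6, lowest on replicate 6. The probe set for Psmc4 was dim at a mean of 36.6, below the floor on 4 of 7 arrays, although the assembled ring holds that subunit.

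The 14 genes named Psmd hold the scaffold, receptor and lid subunits of the cap and a few assembly chaperones. The brightest was the lid subunit Psmd11 at 2546 ± 258, followed by Psmd6 (1730 ± 142), Psmd3 (1674 ± 202) and the scaffold subunit Psmd1 (1527 ± 108). Psmd4, a ubiquitin receptor, read 1195 ± 96.4, and Psmd14, which cuts ubiquitin chains off the substrate, read 803 ± 118. Psmd5, a chaperone for assembly of the base, read 311, 485, 400.5, 346, 540.1, 528 and 462 (439 ± 88.8), and its SD was 1.56 times the expected SD (adjusted p = 0.990, limma). It was lowest on replicates 1 and 4. The other scaffold subunit, Psmd2, had a dim probe set at a mean of 45.1, and the chaperone Psmd10 (gankyrin) read 131, both under the filter. With Psmc4 and Psmc3ip these made 4 proteasome genes that were not tested.

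**Figure D2:**
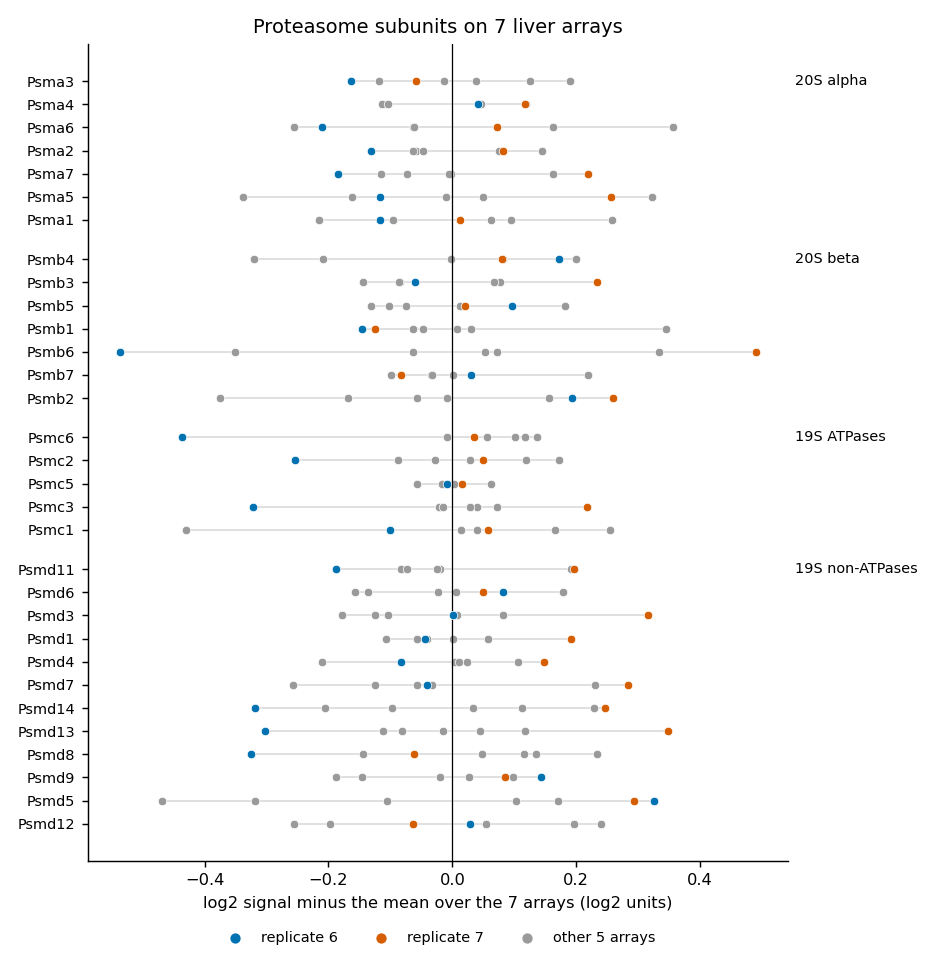
Log2 signal minus the gene's own mean over the 7 arrays for the 31 tested proteasome subunits, grouped by role, with 1 point per array and replicates 6 (blue) and 7 (orange) marked. Orange points lie mostly to the right, above the mean in 26 of 31 genes, and blue points mostly to the left, with 12 of 31 genes lowest on replicate 6.

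Averaged over the 31 genes, the log2 signal deviated from the genes' own means by -0.02, 0.01, -0.02, -0.07, -0.10, 0.13 and 0.06. Replicate 7 was the highest array for 12 of 31 subunits (38.7%, against 14.6% of all tested genes) and the lowest for none. On that array 26 of 31 lay above their own mean (83.9%, against 51.9% of all tested genes), and on replicate 8 there were 23 of 31 (74.2%, against 50.5%). Replicate 6 was the lowest array for 12 of 31 (38.7%, against 13.6% of all tested genes). The order of these 2 arrays was the same under each of 12 settings that kept all arrays, the main one included. Of these, floors of 0.05 and 0.2 and no scaling left the averages wholly or nearly unchanged, so they could hardly alter the order. Smaller deviations changed sign between settings: with median centring replicate 1 was at 0.05 and replicate 2 at -0.01, and with a filter of 0.2 replicate 3 was at 0.01.

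The mean Pearson correlation between pairs of proteasome subunits across the 7 arrays was 0.155, with 300 of 465 pairs above 0 (64.5%), beside a mean of 0.001 over all pairs of tested genes. It was 0.357 among the 5 ATPases, 0.284 among the 12 Psmd genes, 0.269 among the 7 alpha subunits and -0.015 among the 7 beta subunits. Pairs share arrays and genes, so these are descriptions. The value rests largely on replicates 6 and 7: it was 0.131 without replicate 6, 0.067 without replicate 7 and 0.038 without both, a choice made after seeing the data. Without replicates 1 and 2 it was 0.204, and with median centring of the arrays it was 0.265. Other large assemblies gave 0.082 over 23 cytosolic ribosomal protein genes and 0.061 over 8 genes of the TCP-1 chaperonin ring.

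Replicates 6 and 7 both belong to the set with lower spike-ins, so the difference between them is within that set. Replicate 7 had the highest summed signal of the Kupffer cell and macrophage markers, 8277 against 6330 to 7634 on the other arrays (10 of 12 listed markers were on the array and 8 passed the filter, and Marco was near the floor). It also had the lowest ratio of 3′ to 5′ probe sets for Gapdh, 0.788 against 0.804 to 0.907 on the other arrays. Its ratio for actin was the highest, 1.78 against 1.31 to 1.74, so neither ratio lay far from the nearest array. Replicate 6 had the lowest summed signal of the 10 hepatocyte markers, 171270, against 177552 on replicate 8, 183078 on replicate 7 and up to 214046. The part of cell makeup and RNA quality in the shift of the proteasome genes was not tested. In whole liver, more cells of a type and more RNA per cell cannot be told apart.

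**Figure D3:**
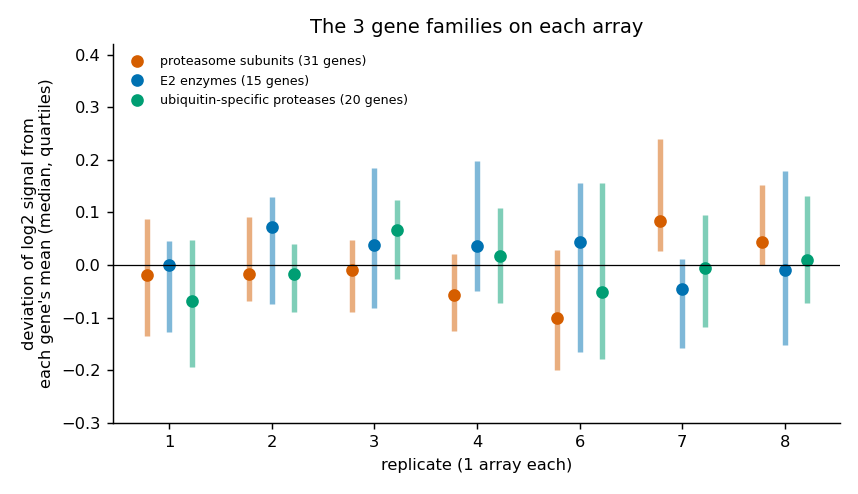
Deviation of log2 signal from each gene's mean over the 7 arrays, by replicate, for the 3 families; points are medians and bars run from the lower to the upper quartile over genes, so they show the spread of genes and are no error. The proteasome lies lowest on replicate 6 and highest on replicate 7, and the other 2 families show no such order.

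For the E2 enzymes and the ubiquitin-specific proteases the mean pairwise correlations were -0.015 (55 of 105 pairs above 0) and 0.011 (95 of 190 pairs). The mean deviation of the 15 E2 genes was lowest on replicate 7, at -0.08, where the proteasome was highest. That of the 20 ubiquitin-specific protease genes was lowest on replicate 1, at -0.07, and highest on replicate 3, at 0.06. No test of the difference between families was made. The array that was lowest or highest changed between settings for both of these families.

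Among the E2 enzymes, Ube2r2, a partner of cullin-RING ligases, was brightest at 2725, 3446, 3232, 3434, 3284, 2915 and 3079 (3159 ± 269). It was lowest on replicates 1 and 7. Ube2g1, which builds degradation signals, read 1688, 1848, 1455, 1732, 1579, 1639 and 1928 (1696 ± 160.0). Ube2v1, a catalytically inactive variant, read 1159, 1057, 1343, 1172, 1258, 1284 and 1289 (1223 ± 98.1). Its partner Ube2n, with which it makes chains used in signalling, read 1012 ± 93.5. Ube2b, a Rad6 homolog that marks histone H2B, was the steadiest E2 at 1009, 974, 936, 1041, 953, 959 and 1067 (991 ± 49, log2 SD 0.07). All 7 of its arrays lay within 1.14-fold.

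The 3 E2 genes with the largest SD relative to level were Ube2z, Ube2f and Ube2h. Ube2z, which is charged by the alternative E1 enzyme Uba6, read 443, 697, 506, 347, 383, 335 and 366 (439.6 ± 128). Replicate 2 was the highest, and without it the log2 SD fell from 0.38 to 0.23. It was also 0.23 when the 2 Ube2z probe sets were averaged, which correlated at only 0.285 across arrays. Ube2f, an E2 for the ubiquitin-like protein Nedd8, read 177, 241, 245, 229, 109, 166 and 263 (204 ± 55.3), close to the filter. Its log2 SD of 0.45 fell to 0.27 without replicate 6. Ube2h read 783, 985, 726, 1042, 1098, 994 and 828 (922 ± 142), highest on replicate 6 and lowest on replicate 3. None of the 3 passed the test of spread (smallest adjusted p = 0.861, for Ube2z, limma).

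The other tested E2 genes were Ube2d3 (889 ± 119.8), Ube2k (526 ± 82.2), Ube2l6 (513 ± 83.3), Ube2e1 (502 ± 58.2), Ube2d2a (484 ± 51), Ube2o (413 ± 55.7) and Ube2s (339 ± 63.2). The other 6 E2 genes were under the filter, with means from 21.1 for Ube2t, below the floor on all arrays, to 166 for Ube2a. Ube2a was the closest member outside the filter, and the closest inside was Usp39 at 202. Ube2c, the E2 of the anaphase-promoting complex and a marker of dividing cells, was among the untested. It read 98.4, 61.4, 169, 32.9, 213, 239 and 218, which put the 3 arrays with lower spike-ins above the other 4. Its probe set has the suffix _r_at, which follows relaxed design rules.

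**Figure D4:**
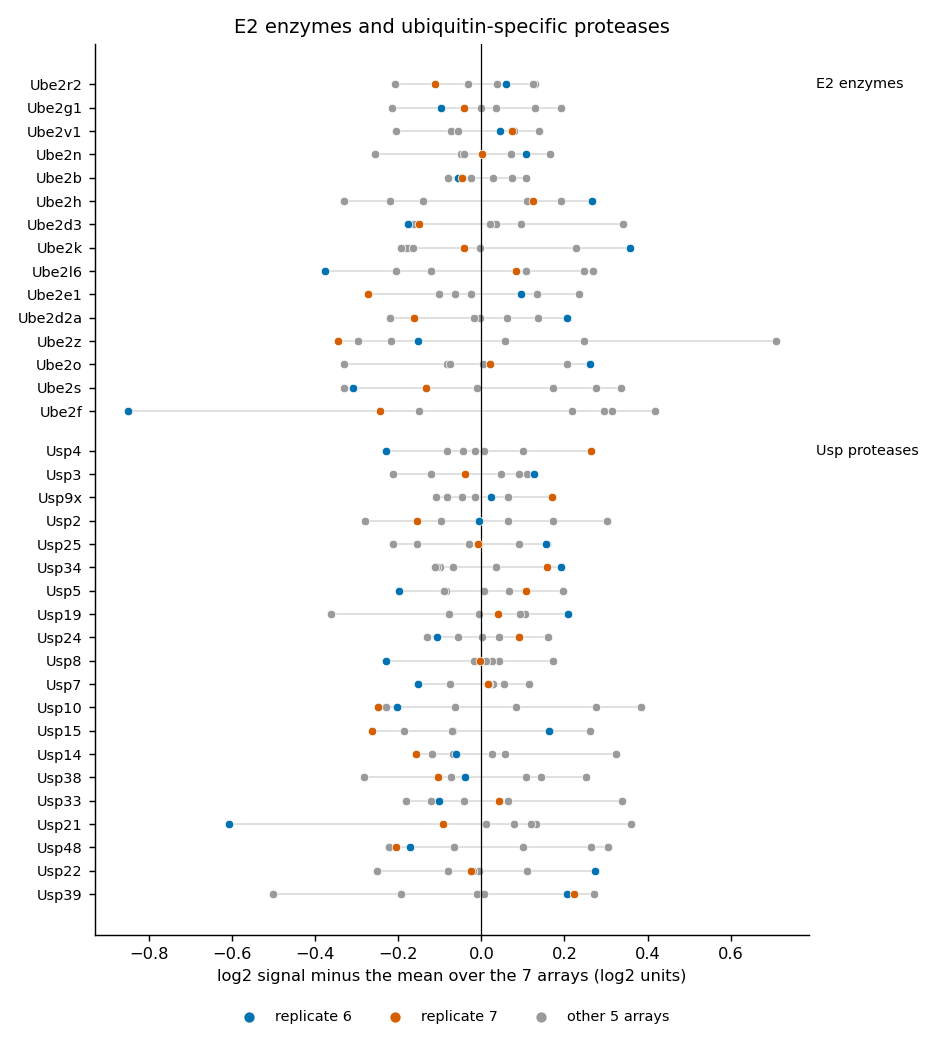
Log2 signal minus the gene's own mean over the 7 arrays for the 15 tested E2 genes and the 20 tested ubiquitin-specific protease genes, with 1 point per array and replicates 6 and 7 marked. The 2 marked arrays fall on both sides of the mean, and the widest genes are Ube2f (SD 0.45) and Ube2z (SD 0.38).

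Usp4, Usp3 and Usp9x were the brightest ubiquitin-specific protease genes. Usp4 read 1477, 1362, 1336, 1301, 1174, 1654 and 1384 (1384 ± 150.4). It shared with many proteasome subunits a high on replicate 7 and a low on replicate 6. Usp3, which acts on histones, read 1098, 1171, 1374, 1356, 1389, 1240 and 1316 (1278 ± 111). Usp9x, a large X-linked protease, read 1125, 1200, 1269, 1176, 1234, 1366 and 1146 (1217 ± 82.5). Usp9x, like Usp4, was highest on replicate 7, whereas Usp3 was highest on replicate 6. Neither Usp3 nor Usp9x had its low on replicate 6.

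The widest ubiquitin-specific proteases relative to level were Usp10, Usp2 and Usp21. Usp10 read 509, 632, 723, 779, 519, 503 and 572 (605 ± 111), higher on replicates 2, 3 and 4 than on the other 4. Usp2, whose transcript follows the circadian clock in liver, read 1180, 929, 1271, 1054, 1123, 1014 and 1392 (1138 ± 158), highest on replicate 8. A second Usp2 probe set followed the same order closely (r = 0.906, rho = 0.857 across the 7 arrays). Usp21 read 238, 259, 250, 257, 155, 222 and 304 (241 ± 45.4), and without replicate 6 its log2 SD fell from 0.30 to 0.15. No member of the family reached an unadjusted p under 0.05. Usp7, which acts on Mdm2 and p53, was the steadiest at 649.6, 645, 605, 689.7, 573, 644 and 662 (638 ± 38.2).

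Of the deubiquitinases that work at or near the proteasome, Usp14, which binds the cap, read 449.5 ± 53.4, and Usp5, which recycles free ubiquitin chains, read 792 ± 74.1. Usp25 (887 ± 88.3), Usp34 (859 ± 79.3), Usp19 (771 ± 92.3), Usp24 (699 ± 51.8) and the endosomal Usp8 (667 ± 53.7) were of similar signal. Usp15, Usp38, Usp33, Usp48, Usp22 and Usp39 had means from 541 down to 202. The 6 untested members were Usp1 (154), Usp17lc (41.8), Usp42 (39.4), Usp29 (31.7), Usp12 (12.1) and Usp17la (6.47). Usp12, Usp17la and Usp29 were below the floor on all 7 arrays.

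The constitutive catalytic subunits were set beside their interferon-induced counterparts, which take the same places in the core. On replicates 1 and 8 Psmb8 read 1908 and 1490, against 1004 to 1316 on the other arrays. Psmb9 read 1729 and 1245 there, against 610.4 to 830.0, and Psmb10 read 1620 and 1460, against 958 to 1177. The 3 induced subunits thus shared 2 high arrays, while Psmb5, Psmb6 and Psmb7 had none in common.

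Over the 7 arrays, Psmb5 and Psmb8 correlated at r = 0.355 (exact permutation test over all 5040 pairings, two-sided, p = 0.435, adjusted over 3 pairs p = 0.974) and rho = 0.5 (exact p = 0.267, adjusted p = 0.667). Without replicates 3 and 8, the 2 arrays farthest from the Psmb5 median, r was -0.026. Psmb6 and Psmb9 gave r = 0.223 (exact p = 0.650, adjusted p = 0.974) and rho = -0.071 (exact p = 0.906, adjusted p = 0.906), and r = 0.795 without replicates 6 and 7. Psmb7 and Psmb10 gave r = 0.019 (exact p = 0.974, adjusted p = 0.974) and rho = 0.357 (exact p = 0.444, adjusted p = 0.667), and r = 0.405 without replicates 2 and 4. No relation between a constitutive subunit and its counterpart was detectable over all 7 arrays, and leaving out 2 arrays moved each value widely.

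Within the spike-in sets the first pair looked different. Drawing pairings only within sets was chosen after seeing the data, and the adjusted p-values within sets do not allow for that choice. With the mean of each set removed and pairings drawn only within sets, Psmb5 and Psmb8 gave r = 0.918 (exact permutation test, two-sided, p = 0.00694, the smallest they can give, adjusted p = 0.0208) and rho = 0.893 (exact p = 0.0139, adjusted p = 0.0417). Without replicates 1 and 8 r was 0.587, so the value leans on the 2 arrays with high interferon genes. The correlation over all 7 arrays also depends on the probe set. A second Psmb5 probe set, with a mean of 573, correlated at only 0.141 with the first. Over all 7 arrays the Psmb5 to Psmb8 correlation was -0.333 with the 2 averaged and -0.744 with the second alone (adjusted p = 0.974 and 0.128, exact permutation tests). These stand beside 0.355 with the first over all 7 arrays, and no value within sets is given for them. The other 2 pairs gave r = 0.224 and 0.018 within sets (adjusted p = 0.927 and 0.979, exact permutation tests).

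**Figure D5:**
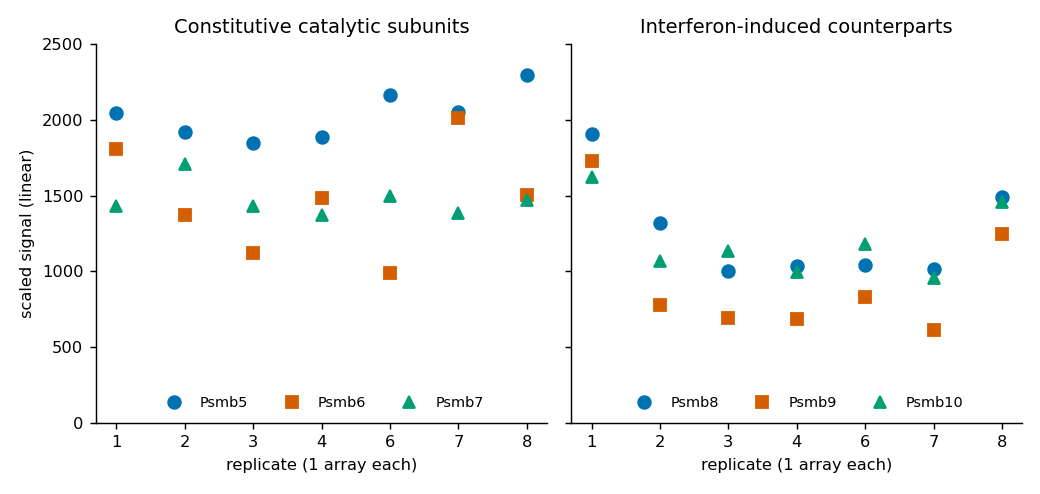
Scaled signal (linear axis from 0) on each of the 7 arrays for the constitutive catalytic subunits Psmb5, Psmb6 and Psmb7 (left) and their interferon-induced counterparts Psmb8, Psmb9 and Psmb10 (right), 1 point per array. The induced subunits are high on replicates 1 and 8, and of the constitutive ones only Psmb6 spreads widely, from 987 to 2013.

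Ube2l6 is the E2 of the interferon-induced modifier ISG15, so it can be read beside the same arrays. It read 602, 466, 546, 440.0, 391, 537 and 610.4, highest on replicates 8 and 1, with replicate 3 next. Uba7, the E1 of that pathway, read 811 and 692 on replicates 1 and 8, against 527 to 629 elsewhere. Usp18, which removes ISG15, read 265 and 175 there, against 105 to 163, and was under the filter. Isg15 itself was highest on replicate 6, at 697, and read 661 and 614 on replicates 1 and 8. Ube2l6 did not pass the test of spread (adjusted p = 0.990, limma).

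The set of arrays with higher spike-ins was compared with the other set for each gene (limma, replicates 1 to 4 against 6, 7 and 8). No member and no gene of the array passed at an adjusted p under 0.05 (0%). At an unadjusted p under 0.05 there were 6 of 66 members (9.09%), beside 6.9% of all tested genes. These were Psmb2 (log2 difference, higher minus lower set, -0.36), Psmd5 (-0.42), Psmd7 (-0.28), Usp34 (-0.23), Ube2d3 (0.29) and Psma3 (0.20), with adjusted p from 0.579 to 0.706. The 2 sets did not overlap for 8 of 66 members (12.1%), beside 7.34% of all tested genes: Psma3, Psmb1, Psmb2, Psmb5, Psmd6, Psmd9, Ube2d3 and Usp34. The unadjusted count fell to 3 with median centring, to 3 without any of replicates 1, 6, 7 or 8, and to 2 without replicate 4. A single array stood apart from the other 6 for 3 of 66 members (4.55%), Psmb1, Psmb7 and Psmc6, beside 6.29% of all tested genes.

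A gene read by several probe sets offers a check on its values. There were 24 members with more than 1 probe set and 30 further probe sets among them. In the 15 pairs with both above the filter, the median correlation across arrays was 0.460, and 14 of 15 were above 0. None of the 15 reached an adjusted p under 0.05 (exact permutation tests). Among members named above, the agreement ranged widely. It was lowest for a further Psmd11 probe set (r = -0.029, with 0.564 for another) and for the second Ube2k probe set (r = 0.029). The second Usp2 probe set correlated at r = 0.906 with the first, as given above, and the second Ube2d3 probe set (mean 579) at r = 0.789 and rho = 0.821. The second Psmb1 probe set (mean 714) correlated at r = 0.354 and rho = 0.786 with the first, and the second Ube2h probe set (mean 770) at r = 0.423. In the other 15 pairs the second probe set was under the filter and was not compared.

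The rest of the pathway was followed in lists by role. Of 11 tested genes of the immunoproteasome, the activators and the assembly factors, 2 reached an unadjusted p under 0.05, Psmb8 and Psmb9, and none an adjusted one (limma). Over all tested genes the unadjusted share was 6.72%, and the lists are too short for their counts to be read against it. The counts at an unadjusted p under 0.05 were 0 of 4 for ubiquitin-like modifiers, 0 of 5 for E1 enzymes, 0 of 26 for E3 ligases, 0 of 5 for other deubiquitinases and 0 of 7 for transcription factors of proteasome genes. Among shuttle factors and the p97 segregase group it was 1 of 8, Ufd1, with an adjusted p of 0.608. No list had a gene with an adjusted p under 0.05. The proteasome assembly factor Pomp read 2735 ± 382 and the segregase Vcp 3295 ± 419. Nfe2l1 read 1855 ± 181 and Nfe2l2 1039 ± 96.2, and both were lowest on replicate 7, the array on which the proteasome subunits were highest. Nfya, Nfyb, Nfyc, Mafg and Mafk, the other tested factors of that list, were lowest on other arrays. A link between these transcripts and the proteasome genes was not tested.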

How the data were processed

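Each array gave 1 intensity for every probe set on a linear scale, as the authors deposited it from a GeneArray scanner. Which software and target made these signals is not given in the sources used here. Scaling had already been applied to the deposited intensities, since their mean with 2% trimmed from either end was 500.4 on all 7 arrays. Their number limits the precision.

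Of 12488 probe sets, 66 were controls and 10833 had a single gene symbol in the platform annotation. Arrays were scaled to the same trimmed mean, values under 0.1 of it were raised to that floor, and log2 was taken. The test took genes whose mean reached 0.4 of it. Spread was tested with an intercept-only limma 3.58.1 fit in R 4.3.3, with a robust prior following level (prior degrees of freedom 5.61), an F test on the upper tail and adjustment by Benjamini-Hochberg at 0.05. Array sets came from 9 spike-in probe sets split at the widest gap of their mean. The fits were tested on simulated data. Correlations used exact permutation in Python 3.11.15 with numpy 2.4.6, pandas 2.3.3 and scipy 1.17.1, and plots matplotlib 3.10.9.

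The members and lists were chosen with earlier results of these data known, although the rule for members uses symbols only. Values on all arrays are given for the catalytic subunits and, in each family, for the 3 brightest tested genes, the 3 that varied most relative to the expected SD and the steadiest, and for members with an unadjusted p under 0.05 in the spread test or an array that stood apart. Psmb2, Ube2c and Ube2l6 were added after their values were seen. Alternatives were floors of 0.05 and 0.2, an added offset, filters of 0.2, 0.8 or none, quantile normalization, median centring, no scaling, all or strict probe sets, other priors, set means removed and each array left out. Leaving out replicates 1 and 2, or 6 and 7, and permuting within sets were chosen after seeing the data.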

Additional observations from a re-analysis of the deposited data

Results flagged for a closer look

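In 3 of the 66 tested members a single array stood apart from the other 6: on the log2 scale, the gap to the nearest array as a share of the whole range was above Dixon's critical value at 95%. Psmb1, a structural beta subunit, had a share of 0.642 on replicate 2 (2421 against 1723 to 1946). A second Psmb1 probe set correlated at r = 0.354 and rho = 0.786 with this one and was not examined for an array apart. Psmb7, the trypsin-like subunit, had a share of 0.594 on replicate 2 as well (1706 against 1369 to 1497). Psmc6, an ATPase of the cap, had 0.747 on replicate 6 (2471 against 3324 to 3675). Chance alone marks about 1 in 20 groups in this way. Members under the filter were not examined for it.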

How the results depend on the processing

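Counts of members at an adjusted p under 0.05 were 0 for the spread test under all 23 alternatives and 0 for the array set difference under all 20. The count at an unadjusted p under 0.05 in the spread test, 1, was 2 with a filter of 0.2, 5 with no filter, 0 with all probe sets, 0 with a prior without the robust step, 0 without replicates 6 and 7 together, and 0 to 1 with single arrays left out. That of the array set difference, 6, was 3 with median centring, 4 with quantile normalization, strict probe sets or without replicates 1 and 2, 7 with a filter of 0.2 or all probe sets, 9 with no filter, 0 without replicates 6 and 7 together, and 2 to 6 with single arrays left out. The median log2 SD of proteasome subunits was 0.12 without replicates 6 and 7, against 0.16, and that of E2 enzymes 0.22 with a filter of 0.2, against 0.19. The mean pairwise correlation of proteasome subunits was 0.265 with median centring, 0.038 without replicates 6 and 7, and 0.067 to 0.190 with single arrays left out. That of ubiquitin-specific proteases was -0.021 without replicates 1 and 2. The correlation of Psmb5 with Psmb8 was 0.918 with array set means removed, against 0.355. The causes were not tested. Of 716 comparisons with an alternative, 679 kept their side of the threshold or moved by less than the spread from leaving out arrays. Of the 716, 448 were log2 SDs of single genes, and 431 of those 448 are among the 679. Other floors, filters and priors left these SDs unchanged where the gene was still tested, and no scaling left them nearly unchanged, so that agreement was fixed beforehand. Settings with a single array left out were judged by a spread computed from those same settings. Their agreement was therefore also largely fixed, and the totals are no measure of robustness. The 2-array exclusions leave 5 arrays, and the filter of 0.2 and no filter add dim genes. No detection calls were used, so dim signals may be background. No paired analysis was possible because all samples form 1 group.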
